A study of Mus musculus with 232 samples.

Results

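The cells described here were miR-294-transfected Dgcr8-/- mouse embryonic stem cells (ESCs) split by how strongly they transcribed 6 genes of mitosis. Dgcr8 is a subunit of the nuclear complex that cuts most miRNA precursors, and ESCs without it hold few mature miRNAs of their own, against which a mimic can be added back. All cells were grown in LIF and 2 inhibitors that hold ESCs in a stable pluripotent state, and transfected cells were captured 24 h after the mimic was given. Of the cells of the series, sequenced in 232 runs, 58 had received the miR-294 mimic, and the 55 of these whose titles share a prefix were ranked. For each cell the counts of its runs were summed and divided by their total in units of 1000000 (counts per 1000000, CPM), and the mitotic score was the mean of log2(CPM + 1) over Ccnb1, Cdc20, Plk1, Aurka, Cenpa and Cenpe. The 19 cells with the highest score were compared with the 19 with the lowest, and 17 cells lay between them. The other 3 miR-294 cells, which carry another prefix, were not ranked. The same score was computed for 60 mock-transfected Dgcr8-/- cells, 48 Dgcr8-/- cells given a let-7 mimic and 16 wild type ESCs, in the same medium. Titles of the wild type cells begin with V6.5. Those of the let-7 cells begin with LET_7I, while the paper names the mimic let-7c. The mock, let-7 and wild type groups and the 58 miR-294 cells make up the series from which the 38 cells compared are taken.

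Mitosis is run by a small set of proteins whose mRNAs accumulate in G2 and are cleared as the cell divides. Cyclin B1 (Ccnb1) with Cdk1 drives entry, the kinases Plk1 and Aurka build the spindle, Cenpa and Cenpe belong to the centromere and kinetochore, and Cdc20 turns on the anaphase-promoting complex, the ubiquitin ligase that ends mitosis. Many of these genes are repressed outside G2 and mitosis by complexes that sit on a short promoter element called the CHR, and many carry CCAAT boxes, bound by NF-Y. ESCs have a short G1 and spend most of the cycle in S phase, and miR-294 belongs to the ESC miRNA family known for speeding their passage from G1 to S. The mature miR-294 is printed here because it is what every ranked cell received. In RefSeq (GRCm38.p6) it lies at chr7:3220691-3220712 on the + strand, and the capitals mark its seed, bases 2 to 8.
miR-294-3p: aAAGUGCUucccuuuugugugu

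Each condition was captured on a single microfluidic chip, so the miR-294 cells share a culture and a chip, and the p-values below measure the spread between cells of that chip only. Both score groups lie on that chip, so no chip difference enters the comparison between them. Library totals of the 38 cells compared lay between 984128 and 3302756 counts, with a median of 1414833 in high-score and 1717334 in low-score cells. Pairs of cells were then compared by their correlation of log2(CPM + 1) over 11186 genes, those whose count averaged 5 or more across all cells. Over 16467 pairs this was at most 0.715 (median 0.543), but 4 pairs stood at 0.987 to 0.991, in the range of 0.97 to 0.99 found between 2 runs of the same cell. The pair among the ranked cells was cells 20 and 21, both in the high-score group, with a correlation of 0.987. They may hold the RNA of 1 cell, in which case the high-score group has 18 independent cells. The numbers of genes called in the main comparison are therefore given both with cells 20 and 21 apart and with their counts summed to 1 cell. Other values are with these cells apart unless stated. The other 3 pairs were let-7 cells. In addition, 2 cells on the other chips had 2 runs that resembled each other no more than different cells do. They were let-7 cell 41 and wild type cell 32 (0.49 and 0.504). The comparison across chips is also given without these 2 cells and 1 cell of each near-identical let-7 pair, the 5 doubtful cells. Let-7 cells 82 and 83, a near-identical pair, lay in neither score group, so leaving out cell 83 changed no group sum.

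The score spanned a wide range among the miR-294 cells. It ran from 7.37 to 8.58 in the high-score group (median 7.92), from 5.38 to 7.34 in the 17 cells between, and from 1.07 to 4.74 in the low-score group (median 4.14). The step at the upper border was small, from 7.37 in the last cell inside the high group to 7.34 in the first cell outside. At the lower border it was larger, from 5.38 just outside to 4.74 just inside the low group. One cell, number 41, lay far below the rest at 1.07, and the next lowest was 2.85. These values chose the groups and are given as a description.

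**Figure D1:**
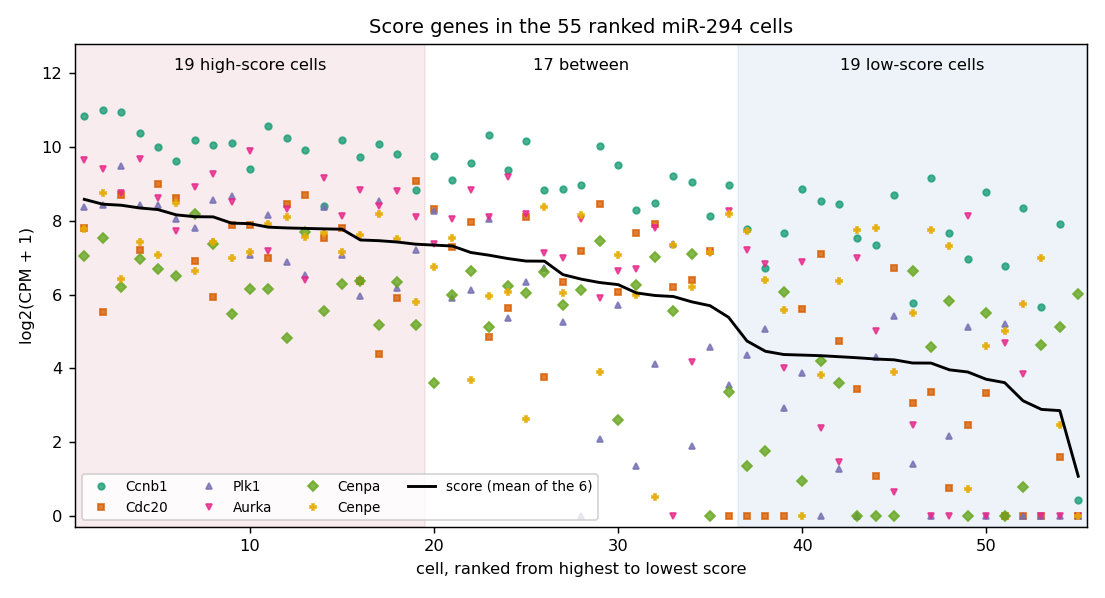
log2(CPM + 1) of the 6 score genes (symbols) and their mean, the mitotic score (line), in the 55 ranked miR-294 cells, ordered from highest to lowest score. Red shading marks the 19 high-score and blue shading the 19 low-score cells. The score falls in a gentle slope to 5.38 and then drops to 4.74, and zero values of single genes gather in the low-score cells.

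The 6 score genes differed in how low they lay in low-score cells. Ccnb1 was counted in each of the 55 cells, with 341 to 2070 CPM (median 1080) in high-score and 0.339 to 569 CPM (median 204) in low-score cells. Plk1 ranged from 61.1 to 721 CPM (median 284) in high-score cells and from 0 to 41.8 CPM (median 1.64) in low-score cells, so that its groups did not overlap. Aurka had a median of 429 CPM against 4.51 CPM and Cdc20 of 223 CPM against 2.01 CPM, with low-score cells reaching 282 and 135 CPM. The groups of the centromere and kinetochore genes lay closer, with medians of 79.8 against 11.1 CPM for Cenpa and 181 against 46.7 CPM for Cenpe. No score gene was at 0 in a high-score cell, while among the 19 low-score cells Plk1 was at 0 in 8, Cdc20 in 7, Aurka in 6, Cenpa in 5, Cenpe in 2 and Ccnb1 in none. Over the 55 cells, Spearman's correlation between pairs of score genes ranged from 0.055 to 0.732 (15 pairs, median 0.458). Leaving Cenpe out of the score kept 16 of 19 high-score and 18 of 19 low-score cells in place, the most that leaving out a single gene moved, and no cell passed from one group to the other.

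Over the 11122 other genes tested, high-score cells were higher in a set of mitotic genes that the score does not contain. Ube2c, Tpx2, Tuba1c, Cks2, Bub3 and Hmmr were called, with log2 fold changes of 1.31 to 2.53, together with 18 genes that lie on no mitotic list. In all 24 genes were higher, 0.216% of the genes tested, and 6 were lower, 0.0539% (edgeR quasi-likelihood test, Benjamini-Hochberg adjusted p below 0.1). With cells 20 and 21 summed, 16 were higher and 2 lower, each of them among the former, and without cell 68 alone 12 were higher. Holm adjustment at 0.1 left 8 higher and 0 lower. On simulated counts the edgeR test gave a larger share of false calls than the threshold allows, so calls near the threshold are weak evidence. The median log2 fold change of all genes was -0.08. Mitotic is used here for 5 lists of genes: mitotic cyclins, kinases and the checkpoint; the anaphase-promoting complex and mitotic exit; kinetochore and centromere; spindle, motors and cytokinesis; and condensin, cohesin and topoisomerase. Of their 160 members tested, 6 were called higher (3.75%) and none lower. With cells 20 and 21 summed, 5 were called higher.

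Among regulators of mitotic exit and entry, Ube2c, the ubiquitin-conjugating enzyme that works with the anaphase-promoting complex (chr2:164769898-164778822, here and below the whole gene in GRCm38), had 59.4 to 716 CPM (median 355) in high-score cells and 0 to 198 CPM (median 64) in low-score cells. No low-score cell reached the median of the high-score cells. Its log2 fold change was 2.40 ± 0.51 (SE, n = 19 and 19, edgeR adjusted p = 0.013, or 0.017 with cells 20 and 21 summed). Over the 55 cells its Spearman's correlation with the score was 0.817, as a description of cells that share a chip. Cks2, a small protein that binds Cdk1 (chr13:51645232-51650660), ranged from 66 to 297 CPM (median 183) against 1.31 to 190 CPM (median 46.9). Every high-score cell lay above the median of the low-score cells, and the log2 fold change was 1.59 ± 0.33 (adjusted p = 0.011). Bub3, part of the checkpoint that holds anaphase until all chromosomes are attached (chr7:131560222-131571895), ranged from 180 to 804 CPM (median 422) against 0.826 to 326 CPM (median 113). Its log2 fold change was 1.72 ± 0.40 (adjusted p = 0.043). Ube2c and Bub3 overlap Tnnc2 and Fgfr2 on the opposite strand, and reads from these overlaps cannot be told apart without strand. Cks2 overlaps Gm22806 on the same strand, as does Tpx2, given below, with Mir5622.

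The other 3 act on the spindle, and Tpx2 was listed with the kinases. Tpx2, which activates Aurka on the spindle (chr2:152847964-152895321), had 84.5 to 544 CPM (median 332) in high-score cells. In low-score cells it had 4.38 to 510 CPM (median 87.8), where 1 cell lay above the median of the high-score cells. The log2 fold change was 1.68 ± 0.37 (adjusted p = 0.022). Tuba1c, an alpha-tubulin of the spindle and cytoskeleton (chr15:99029891-99038110), had 614 to 2630 CPM (median 1330) against 121 to 1110 CPM (median 475), a log2 fold change of 1.31 ± 0.26 (adjusted p = 0.0064). Of its 31-base stretches 55.3% also occur in transcripts of other genes, so part of its counts may belong to other tubulins, and the same holds for 31.7% of Cks2. Hmmr, a protein of spindle poles and microtubules (chr11:40701395-40733422), had a median of 181 CPM (48.5 to 690) against 7.57 CPM (0.558 to 203), and each high-score cell lay above the median of the low-score cells. It was called with an adjusted p of 0.098 (log2 fold change 2.53 ± 0.66), and not with cells 20 and 21 summed (adjusted p = 0.12). Both groups overlapped for each of these genes.

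**Figure D2:**
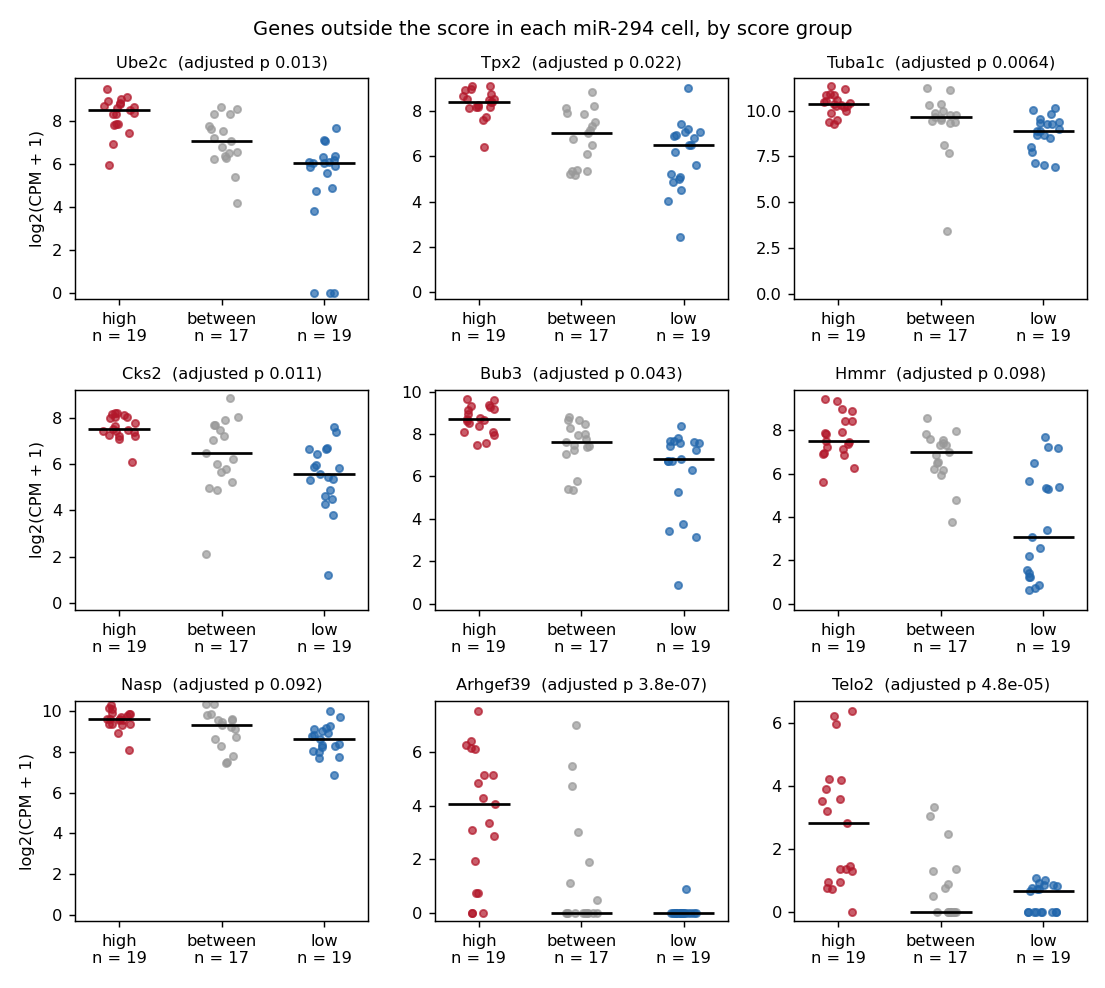
log2(CPM + 1) of 9 genes that are not in the score, 1 point per miR-294 cell, in the 19 high-score, 17 intermediate and 19 low-score cells. Black lines are medians and the adjusted p is that of edgeR for high against low. Medians of the mitotic genes step down from high through intermediate to low, while the medians of Arhgef39 and Telo2 are near 0 outside the high-score group, where single intermediate cells reach 127 and 9.02 CPM.

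The promoters of Ube2c, Hmmr and Cks2 are shown because these genes moved together with the score genes, and 2 elements known from G2 and mitotic promoters can be read in them. The windows run from 250 bases before to 50 bases after the RefSeq start (GRCm38.p6), 5′ to 3′ on the gene's strand. Capitals mark TTTGAA, the letters of the CHR, and CCAAT, each on either strand (TTCAAA and ATTGG). Ube2c (chr2:164769679-164769978, + strand) holds 1 TTTGAA and 6 CCAAT, of which 2 share letters. Hmmr (chr11:40733388-40733687, - strand) holds 1 and 5, and Cks2 (chr13:51644982-51645281, + strand) holds 0 and 4.
Ube2c: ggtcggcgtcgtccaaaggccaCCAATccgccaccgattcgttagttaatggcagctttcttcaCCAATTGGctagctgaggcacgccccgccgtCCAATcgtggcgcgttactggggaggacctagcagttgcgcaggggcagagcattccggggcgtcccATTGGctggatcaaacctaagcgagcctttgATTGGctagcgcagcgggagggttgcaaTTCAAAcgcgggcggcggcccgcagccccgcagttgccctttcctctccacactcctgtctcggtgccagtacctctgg
Hmmr: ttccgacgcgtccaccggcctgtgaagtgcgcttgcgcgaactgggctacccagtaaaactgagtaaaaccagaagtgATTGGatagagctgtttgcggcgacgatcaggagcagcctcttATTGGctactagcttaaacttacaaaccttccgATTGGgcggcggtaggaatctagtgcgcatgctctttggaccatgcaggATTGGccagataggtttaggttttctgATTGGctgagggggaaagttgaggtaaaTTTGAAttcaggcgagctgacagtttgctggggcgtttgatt
Cks2: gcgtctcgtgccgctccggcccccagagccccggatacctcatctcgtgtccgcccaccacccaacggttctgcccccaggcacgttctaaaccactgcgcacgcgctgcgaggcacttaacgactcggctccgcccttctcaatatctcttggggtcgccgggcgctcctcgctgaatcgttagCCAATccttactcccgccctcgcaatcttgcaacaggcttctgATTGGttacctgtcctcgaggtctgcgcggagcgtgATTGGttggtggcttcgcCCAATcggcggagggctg
Of the 6 mitotic genes called higher, 5 have a window in the RefSeq table. These 5 hold CCAAT, and 3 of them TTTGAA. Of the 6 score genes, 6 hold CCAAT and 4 TTTGAA. Among all 8367 genes tested that have a window, 44.1% hold CCAAT and 14.4% TTTGAA, and over the whole table of 27025 genes the shares are 41.1% and 20.2%. A match is a description of the letters and not of binding.

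Of the other 18 genes called higher, most were counted in few cells. The one with the smallest p was Arhgef39, an exchange factor for small GTPases (chr4:43496142-43499695), which had counts in 16 of 19 high-score cells (median 15.5 CPM) and in 1 of 19 low-score cells, at 0.890 CPM. Its log2 fold change was 8.32 ± 1.06 (adjusted p = 3.8e-07). Telo2, which stabilises kinases of the DNA damage and mTOR pathways (chr17:25099570-25115967), had a median of 6.08 CPM (0 to 82.2) against 0.590 CPM (0 to 1.12), which gave a log2 fold change of 5.0 ± 0.77 and an adjusted p of 4.8e-05. Its highest values, 82.2 and 72.8 CPM, were those of cells 20 and 21. With these summed to 1 cell the log2 fold change was 4.70. The other genes called by edgeR and by limma on log2(CPM + 1), each with cells 20 and 21 apart and summed, were Klhl2 (chr8:64739675-64850017) and Hgh1 (chr15:76368898-76371437). Klhl2, an adaptor of a ubiquitin ligase, had a median of 30.2 CPM (0 to 87.4) against 1.42 CPM (0 to 10.6). Hgh1, a chaperone of elongation factor 2, was counted in 11 high-score cells and 1 low-score cell, with 74.8% of its high-score CPM in 2 cells. With Ube2c, Tpx2, Tuba1c, Cks2 and Bub3 these make 9 genes called in all 4 of these fits.

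Only 6 of the 24 genes called higher were counted in each of the 38 cells, and 15 had a mean below 30 CPM in high-score cells. No low-score cell had a count of Pou6f1, Neb, Zfpm2, Syne4, Gm7265 or Ncmap. Against a floor of 3 counts over the low-score group, Pou6f1, a POU-domain transcription factor, was at least 86.7-fold higher in high-score cells and the others at least 13.8- to 64-fold. These bounds compare summed counts and leave out the spread between cells. Pou6f1 kept its call under 20 of 22 other settings, Zfpm2, Syne4 and Gm7265 under 8, Ncmap under 5 and Neb under 4. Gm7265 overlaps Nedd4 on the same strand. Pou6f1 and Ncmap overlap other genes on the opposite strand, and Neb on both strands. The remaining calls were 2610301B20Rik, Apbb1, Sfxn2, Gfod2, Slc16a6, Smarcal1, Trim36 and Nasp, of which Slc16a6 and Trim36 also overlap other genes. Nasp, a histone chaperone, was the one of these counted in every cell, with 266 to 1250 CPM (median 778) in high-score and 113 to 1020 CPM (median 390) in low-score cells. Its log2 fold change was 0.78 ± 0.20 (adjusted p = 0.092, or 0.11 with cells 20 and 21 summed). When each of the 38 cells was left out in turn, 12 of the 24 kept their call every time, among them Ube2c, Tpx2, Tuba1c, Cks2, Bub3, Arhgef39 and Telo2.

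The genes called lower included Scamp5, Slc7a2, Ccpg1os, Sgcz and Gm38120. Scamp5, a membrane protein of secretory vesicles, had a median of 1.08 CPM (0 to 6.85) against 4.38 CPM (0 to 162) and was the only gene called lower that stayed below the threshold whichever cell was left out (log2 fold change -4.05 ± 0.92, adjusted p = 0.036). Leaving out any 1 of 21 of the 38 cells brought the number lower to between 1 and 3. Slc7a2, Ccpg1os, Sgcz and Gm38120 rested on few low-score cells, with 48.7% to 93.1% of the low-score CPM in 2 cells each. Each of these 4 overlaps other genes in the annotation, Slc7a2 and Ccpg1os on the opposite strand, Gm38120 on the same strand and Sgcz on both. The counting was not stated to use strand, so reads from the overlaps cannot be told apart from those of the other genes. With cells 20 and 21 summed, Scamp5 and Ccpg1os were still called.

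Grouped by role, the list medians were highest in the spindle genes and in the mitotic cyclins, kinases and checkpoint genes. Of 47 spindle, motor and cytokinesis genes, 41 had a log2 fold change above 0 (median 1.01), 20 had an unadjusted p below 0.05 in the direction of high-score cells and 1 in the other. Of 31 mitotic cyclins, kinases and checkpoint genes tested, 28 lay above 0 (median 0.94), with 7 at an unadjusted p below 0.05. Among all genes tested, 45.9% lay above 0, with 3.57% higher and 3.33% lower at that unadjusted p. The kinetochore genes (43 tested, median 0.20, 4 higher and 1 lower at an unadjusted p below 0.05) and the condensin, cohesin and topoisomerase genes (18 tested, median 0.24, 2 higher) lay nearer to the other genes. In the anaphase-promoting complex and exit group (22 tested) the median was -0.06, and Ube2c was the only member called by edgeR. Over the 5 lists, 36 of 160 (22.5%) were higher at an unadjusted p below 0.05 and 2 lower.

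**Figure D3:**
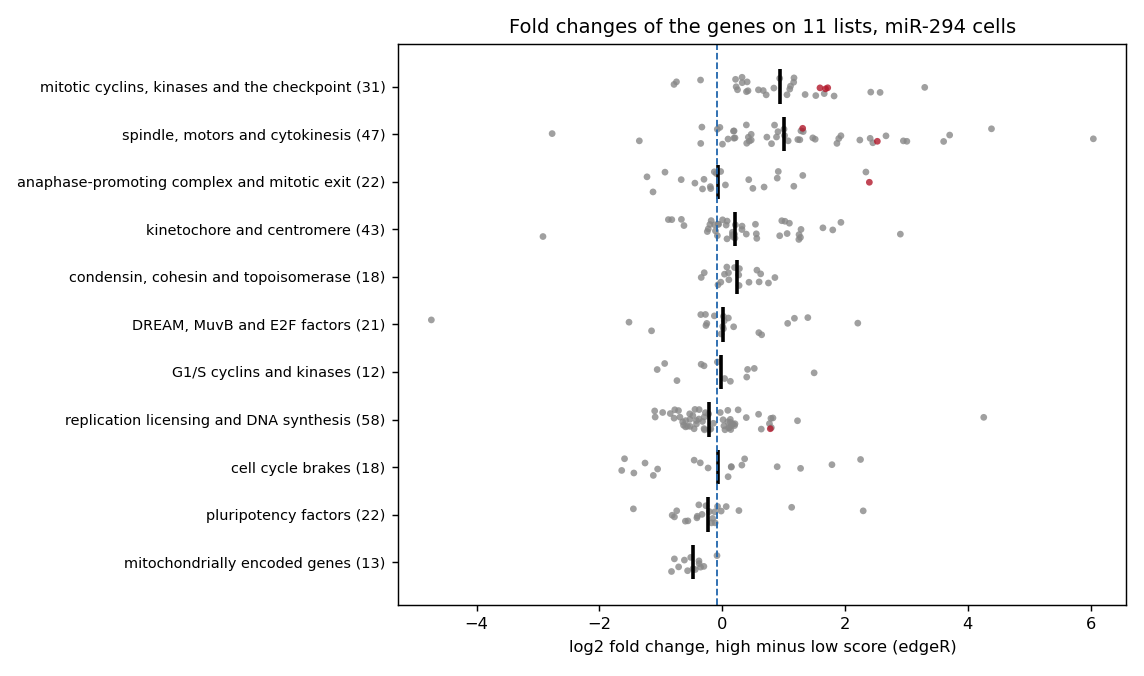
edgeR log2 fold change (high minus low score) of each gene tested on 11 lists, with the number tested in brackets. Black bars are list medians, the dashed line is the median of all 11122 genes (-0.08), and red points have an adjusted p below 0.1. The spindle list (median 1.01) and the list of mitotic cyclins and kinases (median 0.94) lie to the right of the line, and the mitochondrially encoded genes (median -0.47) to the left.

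On the log2(CPM + 1) scale, where a cell without counts weighs more, limma called 68 genes higher (0.611%) and 0 lower (0%, with 91 lower at an unadjusted p below 0.05). Summing cells 20 and 21 left 36 higher and 0 lower. Of the 68, 33 are on a mitotic list, 20.6% of the members tested, and of the 36, 20 are. The median difference of all genes on this scale was 0.29 and 67.9% of genes lay above 0, and high-score cells also had more genes detected, as given below. The kinesins Kif18a, Kif18b and Kif20b, the midzone protein Prc1, the cytokinesis factor Ect2 and the spindle proteins Nusap1, Ckap2l, Ckap5, Aspm and Spag5 were called. Of these, Kif18a, Kif20b and Nusap1 were not called with cells 20 and 21 summed. Aurkb, the kinase of the chromosomal passenger complex, had a median of 105 CPM (0 to 408) against 0 CPM (0 to 150) and a difference of 4.18 (adjusted p = 0.0044). Espl1, the protease separase that cuts cohesin, had 72.1 CPM (1.44 to 168) against 0.820 CPM (0 to 98.4) and a difference of 3.87 (adjusted p = 0.0015). Prc1 had 307 CPM (50.9 to 1140) against 32 CPM (0 to 314) and a difference of 3.04 (adjusted p = 0.0061). In edgeR the adjusted p of these 3 was 0.45, 0.40 and 0.20.

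Several genes often used as markers of G2 and mitosis were not called by edgeR. Ccnb2, the second B-type cyclin, had 2.28 to 292 CPM (median 145) in high-score and 0 to 449 CPM (median 96.9) in low-score cells, a log2 fold change of 0.25 ± 0.60 (edgeR adjusted p = 1). Birc5, the survivin subunit of the passenger complex, had a median of 226 CPM (51.8 to 544) against 172 CPM (9.02 to 380), a log2 fold change of 0.32 ± 0.36. The values for Ccna2, the cyclin of S phase and G2, were 76 CPM (15.5 to 243) against 11.2 CPM (0 to 311), with 0.22 ± 0.76. Foxm1, a transcription factor of G2 genes, had 23.6 CPM against 0.699 CPM, with 0.19 ± 1.15. Values for Cdk1 (1.11 ± 0.46), Top2a (0.75 ± 0.42), Mki67 (1.08 ± 0.96), Kif20a (0.80 ± 0.69), Kif23 (1.23 ± 0.57) and Bub1b (0.84 ± 0.83) were larger but had edgeR adjusted p-values of 0.53 to 0.96. The groups of each of these 10 genes overlapped. In limma Bub1b passed, with an adjusted p of 0.069, and the other 9 did not.

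Among the genes of earlier phases, Nasp was the only one called. Of 12 G1/S cyclins and kinases none was called and none had an unadjusted p below 0.05 (median log2 fold change -0.02). Ccne1, the cyclin of the G1/S transition, had a median of 12.7 CPM against 20.4 CPM (-0.94 ± 0.99) and Ccnd1, a G1 cyclin, 154 CPM against 149 CPM (0.04 ± 0.57). Of 58 replication genes, Nasp was called, and the median was -0.22, with 2 higher and 5 lower at an unadjusted p below 0.05. Pcna, the sliding clamp of the replication fork, had a median of 239 CPM (65.9 to 519) against 365 CPM (102 to 1020), with -0.63 ± 0.25 (adjusted p = 0.45). The licensing factors Mcm2 (0.39 ± 0.40) and Cdc6 (-0.97 ± 0.88) did not pass. Of 18 cell cycle brakes tested none was called, and Cdkn1a, the inhibitor p21, had a median of 18.8 CPM against 23.4 CPM (-1.05 ± 0.68). Of 21 DREAM, MuvB and E2F genes none was called (median 0.02).

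Both groups had the markers of ESCs. Of 22 pluripotency factors tested none was called. Their median log2 fold change was -0.24 and 4 lay above 0, with Tbx3 lower and Nr0b1 higher at an unadjusted p below 0.05. Pou5f1 had a median of 249 CPM (109 to 487) in high-score and 201 CPM (20.9 to 545) in low-score cells, with -0.02 ± 0.29. Nanog had 544 CPM (180 to 1050) against 564 CPM (109 to 1230), with -0.12 ± 0.26, and Sox2 34.7 CPM against 50.5 CPM, with -0.41 ± 0.40. Of 12 fibroblast feeder markers only Fn1 passed the filter on low counts (-0.20), and Col1a2, Col3a1, Postn, Lum and Pdgfra were at 0 in each of the 55 cells. The summed CPM of the 12 was 232 to 817 in high-score and 48 to 1199 in low-score cells. Of 13 early differentiation markers 5 passed the filter and none was called. Dgcr8 itself, the gene deleted in part in these cells, had 2.03 to 201 CPM in high-score and 0 to 222 CPM in low-score cells. Counts over the whole gene do not show whether the deleted part is transcribed.

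The targets of miR-294, taken from the list that the study had from earlier arrays, lay near the other genes. Of 491 tested, 231 had a log2 fold change above 0 and the median was -0.13, beside 5106 of 11122 and -0.08 for all genes. Trim36, a ubiquitin ligase, was the only target called by edgeR, a call it kept under 8 of 22 other settings, with counts in 14 high-score cells (0 to 104 CPM, median 0.862) and 12 low-score cells (0 to 2.75 CPM, median 0.550). On the log2(CPM + 1) scale limma called 4 other targets higher, Kat2b, Cenpl, Ect2 and N4bp2, of which Kat2b and Ect2 were also called with cells 20 and 21 summed. The summed CPM of the targets was 14649 to 23584 (median 18524) in high-score and 14178 to 22597 (median 18422) in low-score cells. The authors had removed a transfected cell whose targets were not repressed, so the cells kept were selected on this measure.

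The phase of each cell was called with cyclone, which compares pairs of genes whose order changes between phases, after every pair with a score gene was removed (96.4% of the pairs for G2/M were left). High-score cells were called G2/M in 14 of 19 cases (73.7%, exact 95% interval 48.8 to 90.9%) and S in 5, and none was called G1. Low-score cells were called S in 13 and G1 in 6 of 19 cases, and G2/M in 0 of 19. The last allows a share of up to 15.8% at a limit of 3 cells and up to 17.6% by the exact 95% interval. The difference in the share of G2/M calls had p = 2.4e-06 (two-sided Fisher's exact test). Without cell 21, which was called S as was cell 20, it was 14 of 18 against 0 of 19 (p = 5e-07). Of the 17 cells between, 3 were called G2/M, 13 S and 1 G1. S was the call wherever neither the G1 nor the G2/M score passed a threshold, so it includes cells without a clear phase. The S scores themselves were 0 to 0.494 (median 0.028) in high-score and 0 to 0.603 (median 0.097) in low-score cells. The intervals cover counting error only, and a call by cyclone rests on other genes of the same cells.

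The groups also differed in the number of genes detected. High-score cells had 7438 to 10291 genes with a count (median 8257) and low-score cells 6633 to 9394 (median 7465), a difference in means of 850 (two-sided permutation test, 100000 resamples, p = 0.00658). The total count went the other way, with a difference in means of -201341 that did not exceed the spread between cells (p = 0.385). With each cell thinned to the same total, the difference was 923 genes (p = 0.0003), and without cell 21 it was 775 unthinned (p = 0.0123). The part of this difference in the calls was not tested beyond adding the number of detected genes to the model, with which edgeR called 22 genes higher and 9 lower. The share of counts from mitochondrially encoded genes was 0.876 to 4.56% (median 2.35%) in high-score and 1.03 to 10.9% (median 2.76%) in low-score cells. All 13 mitochondrially encoded genes had a log2 fold change below 0 (median -0.47), 4 at an unadjusted p below 0.05, and none was called.

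**Figure D4:**
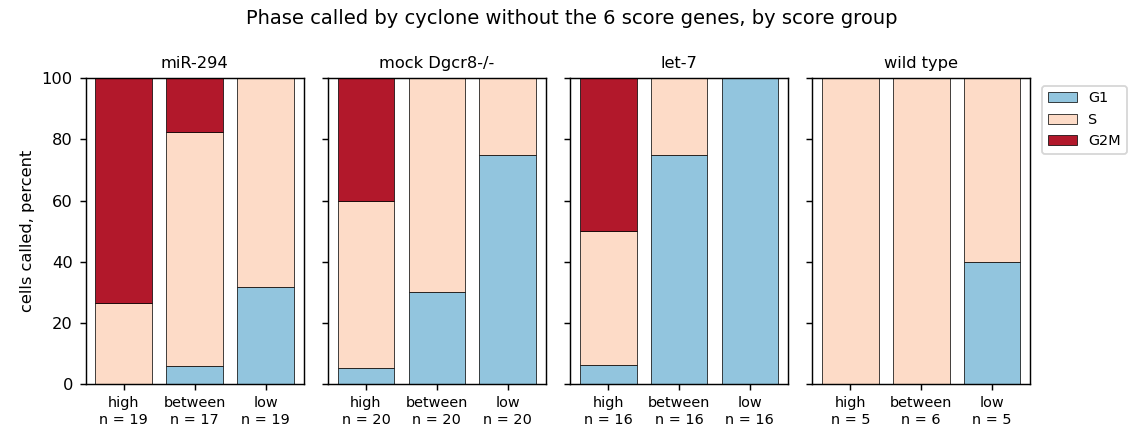
Percent of cells called G1, S or G2M by cyclone without the 6 score genes, on each chip, in high-score, intermediate and low-score cells (numbers of cells below the bars). G2M calls make up 73.7% of high-score miR-294 cells and 0% of low-score ones, and no wild type cell was called G2M. S includes every cell whose G1 and G2M scores both stayed below the threshold, whatever its S score.

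The same score was next applied to the 3 other chips, whose cells the rule did not use, to ask how far the differences recur in cells of other conditions. Wild type ESCs make miR-294 themselves, so that of the 3 only the mock and let-7 cells lack it. Chip and condition cannot be told apart here. High-score cells had 5.32 to 8.46 on the mock chip (20 cells) and 5.30 to 8.8 on the let-7 chip (16 cells), and low-score cells 0.117 to 3.10 and 0 to 1.81. On the wild type chip high-score cells (5 cells) had 7.41 to 8.36 and low-score cells 2.29 to 6.33. The groups are therefore cut at different scores, and values are set side by side. In cyclone, 8 of 20 high-score mock and 8 of 16 high-score let-7 cells were called G2/M, and none of the low-score cells, of which 15 of 20 and 16 of 16 were called G1 (Fisher's exact test for G2/M, p = 0.0033 and 0.0024). None of the 16 wild type cells was called G2/M. Without the doubtful cells, 7 of 14 high-score let-7 cells were called G2/M and 0 of 15 low-score ones (p = 0.0022, Fisher's exact test).

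With counts summed over the cells of each group and the chip as replicate, edgeR called 0 of 11177 genes higher and 0 lower over the 3 chips (0% each). At an unadjusted p below 0.05 there were 166 higher and 170 lower, and DESeq2 on the same sums called 75 and 86. Without the 5 doubtful cells edgeR again called 0, with 310 genes at an unadjusted p below 0.05. The 6 mitotic genes called in miR-294 cells had log2 fold changes above 0 in this fit: 2.98 ± 0.92 for Hmmr, 2.11 ± 0.81 for Ube2c, 1.53 ± 0.45 for Cks2, 1.16 ± 0.43 for Tpx2, 1.15 ± 0.31 for Bub3 and 0.88 ± 0.46 for Tuba1c. By chip, all 6 were higher in high-score cells on the mock and let-7 chips, and 5 on the wild type chip. For all genes tested, 49.4%, 48.9% and 50.7% were higher on these chips. On all 3 chips together 5 of the 6 (83.3%) were higher, against 13% of all genes and 3 of the 18 other genes called higher (16.7%). Arhgef39 was one that turned on the wild type chip, with a log2 ratio of summed CPM + 1 of 5.04 on the miR-294, 3.83 on the mock, 5.14 on the let-7 and -3.09 on the wild type chip. Named genes of G2 and mitosis that edgeR did not call in miR-294 cells went both ways on the wild type chip. Ratios there were -2.19 for Aurkb, -1.81 for Kif23, -1.03 for Ccna2, -0.92 for Birc5, -0.80 for Mki67, -0.59 for Bub1b and -0.34 for Top2a. They were 0.15 for Cdk1, 0.20 for Ccnb2, 0.31 for Kif20a and 1.14 for Foxm1. Without the doubtful cells the wild type ratios of Bub3 and Tpx2 were 0.06 and 0.01, and that of Arhgef39 was -2.94.

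Mock cells, tested cell by cell as the miR-294 cells were, gave 14 genes higher (0.126%) and 0 lower (0%) of 11121, with 309 lower at an unadjusted p below 0.05 and 2 lower in DESeq2. Cks2 was the only gene called on both chips, 4.17% of the miR-294 calls and 7.14% of the mock calls. Its log2 fold change in mock cells was 1.52 ± 0.36 (adjusted p = 0.075), beside 1.59 in miR-294 cells. The mock calls held other genes of mitosis. Espl1 (5.04 ± 1.05), Nusap1 (3.77 ± 0.90), Troap (6.79 ± 1.62) and Arl6ip1 (1.55 ± 0.32) were among them, for which the miR-294 cells had 2.34, 2.24, 2.67 and 1.01 with adjusted p-values of 0.24 to 0.81. Hmgb2, a chromatin protein, was called in mock cells at 1.31 ± 0.24 and had 0.44 ± 0.18 in miR-294 cells. Cdkn3, on the list of cell cycle brakes, had 5.81 ± 1.30 in mock and 0.37 ± 1.24 in miR-294 cells. Of the 14 mock calls, Pofut1 and Emilin1 had log2 fold changes below 0 in miR-294 cells (-1.09 and -0.52), and the others lay above 0.

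**Figure D5:**
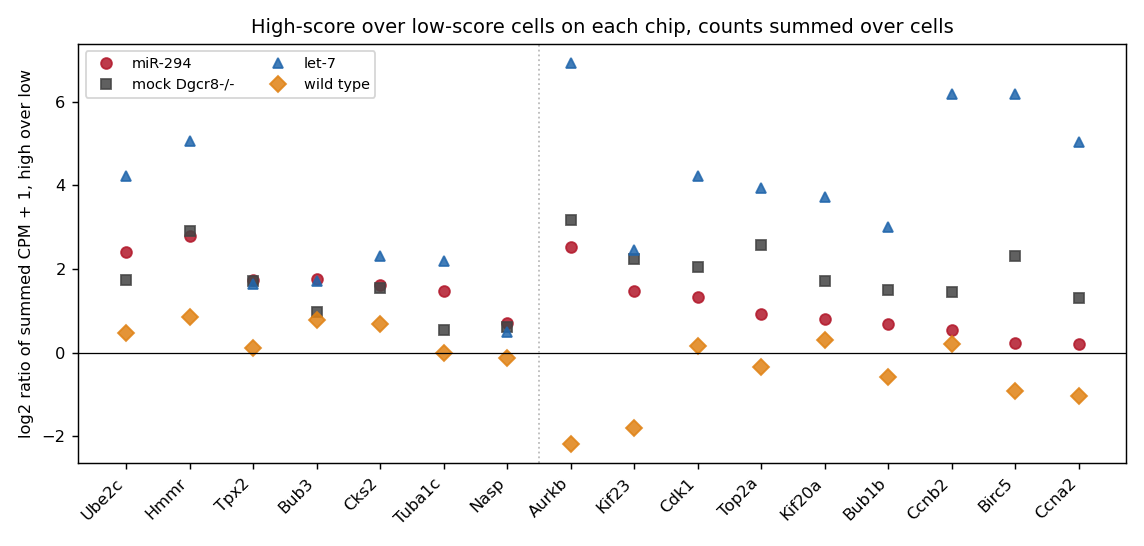
log2 ratio of summed CPM + 1 in high-score over low-score cells on each chip, for the 7 genes called higher in miR-294 cells that were also on a mitotic or replication list (left of the dotted line) and 9 further mitotic genes (right). Ratios lie close together for Tpx2 and Nasp on 3 chips, while Ccnb2, Birc5 and Ccna2 stand at 5.03 to 6.19 on the let-7 chip and at 0.20 to 0.53 on the miR-294 chip.

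Ccnb2, Birc5 and Top2a are examples of genes with unlike values between chips. The log2 ratio for Ccnb2 was 0.53 on the miR-294 chip, 1.44 on the mock chip, 6.19 on the let-7 chip and 0.20 on the wild type chip. For Birc5 it was 0.23, 2.32, 6.19 and -0.92. When the difference between the 2 chips was itself tested, cell by cell, the difference in log2 fold change, miR-294 minus mock cells, was -1.26 ± 1.00 for Ccnb2 (adjusted p = 0.96), -1.67 ± 0.83 for Birc5 (adjusted p = 0.76) and -1.36 ± 0.71 for Top2a (adjusted p = 0.79). Of the 30 genes called in miR-294 cells, only Slc7a2 was called by this test. Differences that were not called could be large and uncertain, with 8.74 ± 2.03 for Neb, 6.89 ± 2.10 for Smarcal1 and -6.28 ± 2.01 for Sgcz. The lack of a call therefore does not show that the chips were alike. Over 11167 genes, 2 differed, 0.0179%, with 718 at an unadjusted p below 0.05. With cells 20 and 21 summed, 0 differed by edgeR, with 686 at an unadjusted p below 0.05, while DESeq2 on the cells apart called 10.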

How the data were processed

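Single-cell RNA-seq was analysed for the 58 miR-294, 60 mock, 48 let-7 and 16 wild type cells. Per the labels and the study's methods, the authors captured cells on Fluidigm C1 chips, aligned and quantified reads with RSEM 1.2.19 on Gencode M4 genes (GRCm38), and removed cells with few reads, low diversity or, after a mimic, no repression of the targets. The authors deposited an expected count per gene and run, not normalized, and an FPKM, which was not used. Reads were not counted by molecule.

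Runs of one cell were added together and the sums rounded to whole numbers, and library sizes are totals over all genes. Of 42493 genes, 41674 had a symbol, and symbols and positions are those of Gencode M21. Of the 11186 genes whose count averaged 5 or more across all cells, each test left out the 6 score genes and those without a count in the cells it compared. High- and low-score cells were compared in edgeR 4.0.16 (R 4.3.3) with TMM, gene-wise dispersions, a quasi-dispersion of at least 1 and a quasi-likelihood F test, called at a Benjamini-Hochberg adjusted p below 0.1. The SE is the absolute log2 fold change divided by the square root of F. limma 3.58.1 on log2(CPM + 1), DESeq2 1.42.0 and scran 1.30.0 (cyclone) were also used. On simulated counts of the miR-294 comparison, gene-wise dispersions gave a larger share of false calls than the threshold allows, and trended dispersions a far larger one, so a call near the threshold is weak evidence. Cells of 1 chip are not independent cultures, so no test here bears on other cultures of miR-294 cells, and the chip-level test over 3 chips is the one with chips as replicates (chip as a block, edgeR trended dispersions). The other chips were cut at their 20, 16 and 5 highest and lowest cells.

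The cells, lists and tests were chosen with earlier results of these data known. Named genes were the 10 genes of smallest p called in each direction (6 were lower), up to 4 called members of each list, and 23 cell cycle and pluripotency genes fixed by name. A gene called lower is not reported here. Other genes are named because a count of calls was small, or because limma or the mock fit called them, after their values were seen. Adding the 3 other miR-294 cells, thinned counts, first runs, other scalings, filters, group sizes and scores were the alternatives, and leaving out each cell or the 5 doubtful cells and summing cells 20 and 21 were added after seeing the data.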

Additional observations from a re-analysis of the deposited data

Results flagged for a closer look

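The log2 fold change between high- and low-score cells differed between the miR-294 and mock chips, by the cell-by-cell test of that difference, for Slc7a2 and Gm26767. Each condition lay on a single chip, so chip and condition cannot be told apart, and the groups were cut at different scores. For Slc7a2, which carries cationic amino acids, the difference of miR-294 minus mock cells was -3.79 ± 0.80 (edgeR adjusted p = 0.081), with a log2 fold change of -2.56 in miR-294 and 1.19 in mock cells. Medians were 1.40 CPM in high-score and 1.74 CPM in low-score miR-294 cells, whose highest values were 79 and 31.1 CPM, and 1.51 and 0.702 CPM in mock cells. For Gm26767 the difference was -9.42 ± 2.07 (adjusted p = 0.081). It rested on 1 low-score miR-294 cell at 120 CPM, where the next had 2.79 CPM, and on high-score mock cells reaching 260 and 174 CPM. With cells 20 and 21 summed, the adjusted p was 0.1 for each, and neither was called.

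The total count of 1 high-score wild type cell, 2927442, stood apart from the other 4, which had 1170085 to 1580974. It is wild type cell 32, the only one of these 5 with 2 runs summed, and its runs were unlike (correlation 0.504). The gap was 0.766 of the range, above the critical value of 0.71. Chance gives such a gap in about 1 of 20 groups, and 6 were examined.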

How the results depend on the processing

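Of the genes called in miR-294 cells, Arhgef39, Telo2, Tuba1c, Cks2 and Klhl2 kept their call under each of 22 other settings, and Neb under 4 of them. The number of genes higher (24) became 12 with a mean count of at least 1, 11 with no filter, 353 with trended dispersions, 68 with limma, 8 with Holm adjustment and 12 at an adjusted p below 0.05. The number lower (6) became 3 with library sizes alone, 2 with a mean count of at least 1, 0 with no filter, 19 with DESeq2, 323 with trended dispersions, 0 with limma, 3 with the total count as covariate, 28 with the score as a number, 1 with 14 cells against 14, 1 with first runs only, 1 with thinned counts, 0 with Holm adjustment and 1 at an adjusted p below 0.05. With cells 20 and 21 summed it was 2, or 14 with DESeq2 and 0 with limma, and the number higher was 16, 28 and 36. Leaving out each of the 38 cells in turn gave 12 to 32 higher and 1 to 9 lower. The lowest counts higher came without cell 68 (12), cell 61 (14), and cells 20 or 67 (15 each). The number lower fell to 1 without any one of cells 12, 33, 40, 44, 47, 58, 66, 69 or 91, to 2 without cell 21, 31, 32, 41, 52, 68 or 85, and to 3 without cell 4, 20, 48, 67 or 89. DESeq2 on the sums of the 3 other chips gave 75 higher and 86 lower, where edgeR gave 0 with each chip left out. In mock cells, 6 (mean count of at least 1) and 23 (DESeq2) genes were higher in place of 14, and 1 (DESeq size factors) and 2 (DESeq2) lower in place of 0. The difference between chips was called for 0 genes with DESeq size factors, with a mean count of at least 1 or with cells 20 and 21 summed, and for 10 with DESeq2. The causes were not tested. No paired analysis was possible because the replicate numbers in the labels mark sequencing runs of a cell and not samples shared between groups. Calls of genes counted in few cells rest on those cells, and whether a greater depth would change them was not tested.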

Other observations

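Histone genes, looked at after their values were seen, lay on the other side of the comparison. Most histone genes are transcribed and their mRNAs kept during S phase only. Of 13 with symbols of the replication-dependent clusters that were tested, 12 had a log2 fold change below 0 and none was called. At an unadjusted p below 0.05, 6 were lower, among them Hist1h2bq, which had no count in high-score cells and few in low-score cells. Among all genes tested 3.33% were lower at that p. Hist1h2ap had a median of 10.5 CPM (1.42 to 99.9) in high-score and 64.1 CPM (1.2 to 297) in low-score cells, with -2.11 ± 0.60 (unadjusted p = 0.000716). The summed CPM of the 13 was 8.88 to 272 (median 54.7) in high-score, 3.66 to 741 (median 193) in intermediate and 14.4 to 867 (median 242) in low-score cells. These mRNAs mostly lack a poly(A) tail, and how many are captured by this protocol was not tested.

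Low-score cell 72 carried the Zscan4 genes, which mark a rare ESC state that resembles the 2-cell embryo. It had 11900 CPM of Zscan4c, 6860 CPM of Zscan4d and 1470 CPM of Zscan4b, and its score was 4.37. The summed CPM of the marker list was at most 428 in the other low-score cells and 37.3 in high-score cells. The list's 5 tested members had a median log2 fold change of -6.56 and none was called. Without cell 72 the log2 fold change was -0.26 for Zscan4b, -1.66 for Zscan4c, -5.05 for Zscan4d and -3.11 for Usp17la, which had no count in that cell.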
